A study of Homo sapiens with 4 samples.

Results

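The strongest BACH1 peaks of the Calu3 list that had no counterpart in the 16HBE14o- list numbered 1409, of 10246 Calu3 peaks in all. They were chosen by the authors' fold enrichment and by position. A peak had to rank in the upper 25% of the Calu3 list by fold enrichment, overlap no 16HBE14o- peak by 1 bp or more, and have its summit over 500 bp from every 16HBE14o- summit. Chromosomes 3 and 20 were left out. The first step kept 2561 peaks, of which 2251 lay on the other chromosomes, and 842 of these overlapped a 16HBE14o- peak. The limit on summit distance removed no further peak. Below, the 1409 are called Calu3-only strong peaks and the 842 shared strong peaks.

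The data were chromatin immunoprecipitation sequencing of BACH1 with a rabbit anti-BACH1 antibody, in 2 established human airway epithelial lines. Calu3 is a lung adenocarcinoma line, and 16HBE14o- is an immortalised line of bronchial epithelial cells. Both were grown in DMEM + 10% FBS, and the labels name no treatment. Each line had 2 replicates, which the authors combined into 1 list of reproducible peaks. A list thus holds no replicate spread, no difference between the lines could be tested, and read depth is unknown. A peak that is missing from a list may have been below what its depth could detect, and is not shown to be absent from that line. Tumour and bronchial epithelium are represented by 1 cell line each. Binding, DNA copy number and the making of the lists cannot be told apart from the line.

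BACH1 is a basic leucine zipper factor of the cap'n'collar family. As a heterodimer with a small MAF protein it binds antioxidant response elements and related MAF recognition elements, where it competes with NRF2 and keeps genes of haem breakdown, iron storage and glutathione supply repressed. Haem binding to BACH1 releases it from DNA and promotes its export and degradation, which lifts the repression. The study asked whether BACH1 also acts on CFTR, the chloride channel gene mutated in cystic fibrosis. The peaks are given here by position on hg19, counted from 1, and were not assigned to genes or read for motifs.

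Fold enrichment of the Calu3-only strong peaks ran from 6.23 to 34.2, with a median of 8.38 (quartiles 7.08 and 10.7). Fold enrichment is the authors' value for each peak and was used only within the Calu3 list. The shared strong peaks reached from 6.24 to 53.0, with a median of 11.4 (quartiles 8.39 and 16.4). Both sets thus covered the same lower range, and only the shared set went past 34.2. Since both the rank and the overlap chose the peaks, these values describe the choice and carry no test. The 3 Calu3-only peaks just inside the limit had folds of 6.24, 6.24 and 6.23, and the 3 next ones outside had 6.23, 6.23 and 6.23.

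Calu3-only peaks were scarce at the very top of the list and became the majority lower down. Of the 20 strongest Calu3 peaks off chromosomes 3 and 20, 1 was Calu3-only, and of the 50 strongest 4 were. Among places 1 to 100 the share was 16.0% (95% exact binomial interval 9.43 to 24.7). It was 42.0% (35.8 to 48.4) among places 251 to 500 and 58.8% (54.3 to 63.2) among places 501 to 1000. In the last 251 places it reached 79.3% (73.7 to 84.1). Over all 2251 strong peaks it was 62.6% (60.6 to 64.6), beside 83.4% of the 8443 Calu3 peaks of every strength on these chromosomes. The overlap and the rank that gave these shares are the ones that chose the peaks, so they are description only. These intervals cover counting error only.

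**Figure D1:**
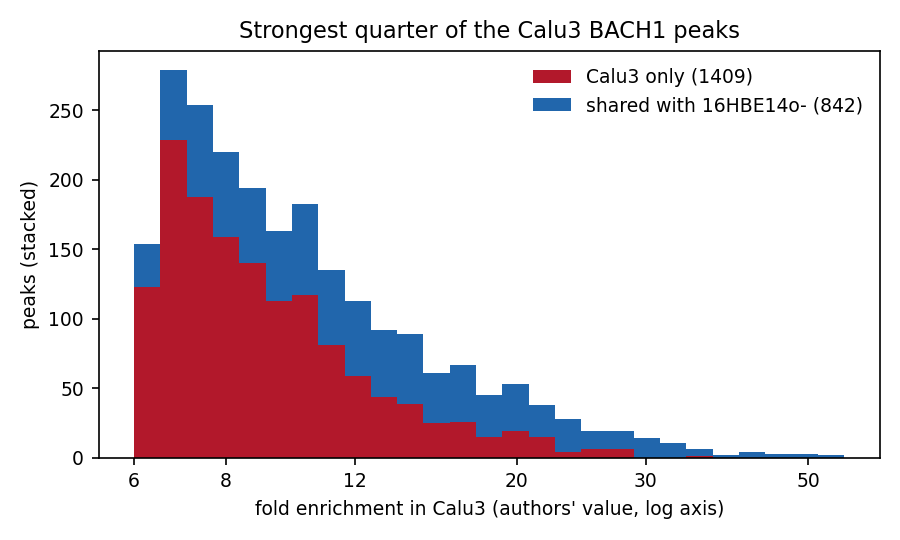
Histogram of the fold enrichment (authors' value, log axis) of the strongest 25% of Calu3 peaks off chromosomes 3 and 20, with 1409 Calu3-only peaks and 842 shared peaks stacked. The Calu3-only part makes up most of each bar near the lower end and ends at 34.2, whereas shared peaks go on to 53.0.

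The Calu3-only peak with the highest fold spanned 137937095 to 137937700 on chromosome 5, with a fold of 34.2 and rank 22 in the whole Calu3 list. Its −log10 p was 160, and the nearest 16HBE14o- summit was 768 kb away. Next came chromosome 8 from 132828332 to 132829023, at a fold of 28.7 and 1217 kb from a 16HBE14o- summit. Another, on chromosome 2 from 212008838 to 212009193, also had a fold of 28.7 and lay 1502 kb from the nearest 16HBE14o- summit. These 3 sites stood far from any site of the other line.

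The next 3 peaks differed in their surroundings. The peak on chromosome 4 from 160947825 to 160948239 (fold 28.5) was the most isolated of the 20 strongest, 3028 kb from a 16HBE14o- summit and 731 kb from the next Calu3 summit. On chromosome 2 from 240169062 to 240169708 (fold 28.2) a 16HBE14o- summit lay 32.9 kb away and another Calu3 summit only 388 bp away. The peak on chromosome 17 from 31149393 to 31149983 had a fold of 28.2 as well and lay 290 kb from 16HBE14o-.

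The highest −log10 p of all Calu3-only strong peaks, 169, belonged to chromosome 5 from 146689843 to 146690371, which ranked 68 by a fold of 26.9. Chromosome 10 from 53592724 to 53593168 followed with a fold of 26.6, 2816 kb from the nearest 16HBE14o- summit. Chromosome 17 from 77907235 to 77908059 was the widest of the 20, at 825 bp, with a fold of 26.5. Its next Calu3 summit was 8.59 kb away, so this site had a close companion in its own line.

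The next 7 sites had folds from 23.3 to 26.4. Chromosome 6 from 25660774 to 25661167 had a fold of 26.4, and chromosome 9 from 94860116 to 94860610 one of 25.1. Chromosome 12 from 53386540 to 53387253 and chromosome 2 from 163438886 to 163439347 had folds of 25.01 and 24.9. These 4 lay from 54.1 to 490 kb from a 16HBE14o- summit. Chromosome 11 from 77010457 to 77010817 had a fold of 23.9, and chromosome 2 held a pair at 56054600 to 56054914 and 54840953 to 54841472 with folds of 23.6 and 23.3. Chromosome 2 carried 5 of the 20 strongest sites, more than any other of the 13 chromosomes on which they fell. It also held the most Calu3-only strong peaks of any chromosome, 151 or 10.7% of all 1409. This stood beside 229 of the 2251 strong peaks and 839 of the 8443 Calu3 peaks of every strength. The Calu3-only part of its strong peaks was 65.9% (59.4 to 72.1), near the 62.6% over all chromosomes kept.

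The last 4 of the 20 ranked from 115 to 133. They were chromosome 13 from 27757042 to 27757549 (fold 23.1), chromosome 18 from 57584745 to 57585113 (fold 22.2), chromosome 7 from 107652923 to 107653422 (fold 22.1) and chromosome 6 from 165595303 to 165595919 (fold 22.1). The site on chromosome 18 was the closest of the 20 to a 16HBE14o- summit, at 925 bp. That 16HBE14o- peak overlapped another Calu3 peak, 927 bp from the site by summit, so the 2 lines shared the neighbour and not the site itself. Among the 20, 5 had a 16HBE14o- summit within 100 kb and 6 had none within 1 Mb. The same held for 21.8% and 28.8% of all 1409.

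The −log10 p of the Calu3-only strong peaks ran from 10.8 to 169 (median 23.5), and none had a deposited q of 0.05 or more. No shared strong peak had one either, with a lowest −log10 q of 7.65, whereas 1883 of the 5635 weaker Calu3-only peaks did. The cut by fold separates the strong from the weaker peaks, so this contrast describes the choice. Ranking by the deposited p in place of the fold left 1192 of the 1409 in the upper 25%. A pair of Calu3-only strong peaks, chosen after their values were seen, combined a fold under 12 with a −log10 p over 100, and no shared strong peak did. The first, on chromosome 21 from 9825377 to 9827610, was the widest peak of the whole Calu3 list at 2234 bp, with a fold of 9.19 and a −log10 p of 163. The second, on chromosome 1 from 156186193 to 156186686, had a fold of 7.92 and a −log10 p of 144. Repeat content and read mapping were not examined at either site.

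Calu3-only strong peaks had a lower median width than shared ones, over the whole sets and within bands of fold enrichment. The choice used the interval through the overlap, but the summit distance alone would have divided the 2251 strong peaks in the same way, with shared summits at most 0.279 kb from a 16HBE14o- summit and Calu3-only ones at least 0.517 kb. Their median width was 316 bp (quartiles 272 and 377), against 378 bp (quartiles 318 and 471) for shared strong peaks and 208 bp for weaker Calu3-only peaks. Width follows the fold within a list, so both sets were divided into the same bands of fold. At folds of 6.23 to 8 the medians were 282 bp over 623 Calu3-only peaks and 297 bp over 181 shared ones. At 8 to 12 they were 320 bp over 551 and 348 bp over 276. At 12 to 20 they were 380 bp over 195 and 416 bp over 249. At 20 and over they were 478.5 bp over 40 and 489 bp over 136. In all 4 bands each median lay within the quartiles of the other set, and the quartile ranges overlapped widely.

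**Figure D2:**
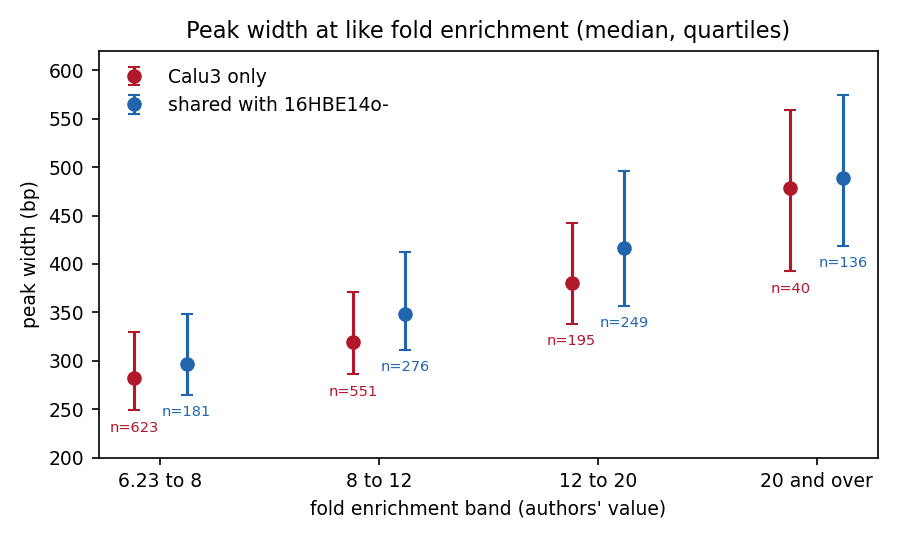
Peak width in bp by band of fold enrichment, with points at the median and bars from the first to the third quartile, for Calu3-only and shared strong peaks (numbers of peaks beside the bars; the width axis starts at 200 bp). Medians rise with the fold in both sets, from 282 to 478.5 bp in Calu3-only and from 297 to 489 bp in shared peaks.

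Within the bands the Calu3-only peaks also had the lower median −log10 p and fold, so the bands do not match the sets exactly. At 8 to 12 the median −log10 p was 27.6 in Calu3-only and 32.1 in shared peaks, with median folds of 9.38 and 9.96. At 12 to 20 it was 51.7 and 59.1, with folds of 14.2 and 14.9. The gap was widest at 20 and over, with a median −log10 p of 93.8 against 113 and median folds of 22.04 and 24.7. The part of the fold in the difference of width was not tested. The median distance of the summit from the middle of the peak was 15.0 bp (95% binomial interval 14 to 16) in Calu3-only strong peaks and 18.2 bp (17 to 20) in the wider shared ones.

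Distances from Calu3-only strong peaks to 16HBE14o- peaks were mostly large, beside a list of only 2862 16HBE14o- peaks on these chromosomes. The choice itself required over 500 bp between summits. What distance the sparseness of that list alone would give was not computed. The median distance to the nearest 16HBE14o- summit was 404 kb (quartiles 120 and 1160 kb; 95% binomial interval of the median 367 to 458). Only 8 had one within 1 kb, 34 (2.41%, 1.68 to 3.36) within 5 kb and 52 (3.69%, 2.77 to 4.81) within 10 kb. At 100 kb the share was 21.8% (19.7 to 24.0). No 16HBE14o- summit lay within 1 Mb of 406 of them (28.8%, 26.5 to 31.3), or within 5 Mb of 30. The most remote was on chromosome X from 83474675 to 83474907 (fold 6.52), 12445 kb from the nearest 16HBE14o- summit.

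Weaker Calu3-only peaks, chosen by the same distance, lay somewhat nearer to 16HBE14o- peaks. Their median distance was 312 kb (95% binomial interval 294 to 330), and 27.9% (26.7 to 29.1) had a 16HBE14o- summit within 100 kb. The median was larger for the strong peaks on 15 of the 21 chromosomes. Neighbouring peaks are not independent, and the difference was not tested.

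**Figure D3:**
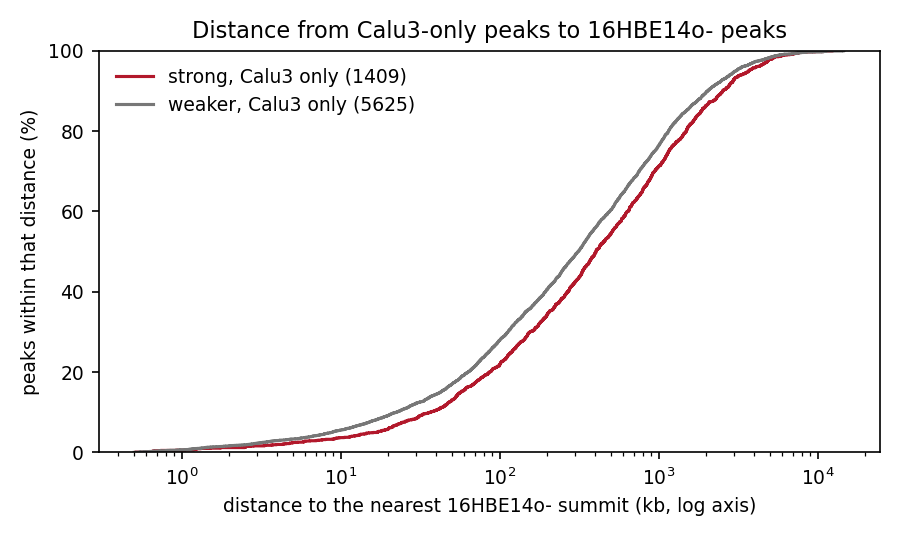
Cumulative share of Calu3-only peaks (%) by distance to the nearest 16HBE14o- summit in kb (log axis), for the 1409 strong and the 5625 weaker peaks on chromosomes with 16HBE14o- peaks. The curve of the strong peaks runs to the right of that of the weaker ones over most of the range, with medians of 404 and 312 kb.

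For the 52 Calu3-only strong peaks with a 16HBE14o- summit within 10 kb, the nearest 16HBE14o- peak overlapped another Calu3 peak in 37 cases and none in 15. They pointed to 50 different 16HBE14o- peaks, of which 35 (70.0%, 55.4 to 82.1) overlapped a Calu3 peak, beside 48.3% (46.4 to 50.1) of the 2862 16HBE14o- peaks off chromosomes 3 and 20. The 16HBE14o- peaks of the 37 stood at a median percentile of 65.3 of their own list by signal (range 16.0 to 99.0). Those of the 15 stood at 23.3 (range 2.23 to 69.9). The same percentiles for all 16HBE14o- peaks with and without an overlapping Calu3 peak are not given here. The closest of the 15 was beside the Calu3-only peak on chromosome 6 from 97346338 to 97346625 (fold 7.30), with the summits of the lines 631 bp apart. Its 16HBE14o- peak was at percentile 21.99 of that list.

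The wider surroundings of Calu3-only strong peaks held fewer 16HBE14o- peaks than those of shared ones. Between 0.5 kb and 1 Mb on either side, a range that leaves out the shared peak itself, the median number of 16HBE14o- summits was 2 (quartiles 0 and 3), against 3 (quartiles 1 and 6) around shared strong peaks. Other Calu3 summits within 1 Mb numbered 7 (quartiles 5 and 12) and 9 (quartiles 5 and 13). Both medians were lower around Calu3-only strong peaks, and their ranges overlapped. Weaker Calu3-only peaks had medians of 2 and 8.

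Within Calu3, the Calu3-only strong peaks had a median distance of 63.1 kb to the next Calu3 summit of any strength (quartiles 16.8 and 165 kb). It was 52.6 kb for shared strong peaks and 56.5 kb over all Calu3 peaks on these chromosomes. The next Calu3 peak was itself a Calu3-only strong peak in 21.6% (19.5 to 23.9) of cases, whereas such peaks made up 16.7% of the Calu3 peaks on these chromosomes. It was a shared strong peak in 8.59% (7.18 to 10.2), beside 9.97% of the list. Around shared strong peaks the figures were 13.4% (11.2 to 15.9) Calu3-only strong and 14.6% (12.3 to 17.2) shared strong. Each kind thus had more of its own kind as neighbours than its share of the list, without a test, since neighbours count each other.

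Another Calu3 summit lay within 1 kb of 54 Calu3-only strong peaks (3.83%, 2.89 to 4.97), near the 4.97% over all Calu3 peaks on these chromosomes and the 5.23% (3.82 to 6.95) of shared strong peaks. The companion was a weaker Calu3-only peak in 41 cases, another Calu3-only strong peak in 8 and a peak shared with 16HBE14o- in 5. Weaker Calu3-only peaks made up 66.7% of all Calu3 peaks on these chromosomes. Among the 44 shared strong peaks with such a companion, it was a weaker Calu3-only peak in 17, a shared one in 15 and a Calu3-only strong one in 4. The rest fell in none of these classes. A companion close to a shared peak also lies near its 16HBE14o- summit, so by the rule it can less often count as Calu3-only. The counts of the 2 sets are therefore not alike. The closest companion to a Calu3-only strong peak was 270 bp away by summit, on chromosome 8 from 10676443 to 10676683 (fold 8.67).

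Calu3-only strong peaks were spread over 973 windows of 1 Mb, of which 660 held 1 and 80 held 3 or more. The 16HBE14o- list had no peak in 466 of the 973. By window this stood beside 1003 of the 2128 with a Calu3 peak of any strength on these chromosomes (47.1%). Counted by peak, 46.5% (43.9 to 49.1) of Calu3-only strong peaks lay in a window without a 16HBE14o- peak. It was 39.9% (38.6 to 41.2) of weaker Calu3-only peaks, and 34.4% of all Calu3 peaks on these chromosomes, which include the shared ones. The difference was not tested. The window with most Calu3-only strong peaks was chromosome 10 from 5000001 to 6000000, with 10 of them and 11 weaker Calu3-only ones. It held no shared peak and no 16HBE14o- peak. Folds of the 10 ran from 6.53 to 15.6, with a median of 8.95. No other window held more than 5.

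**Figure D4:**
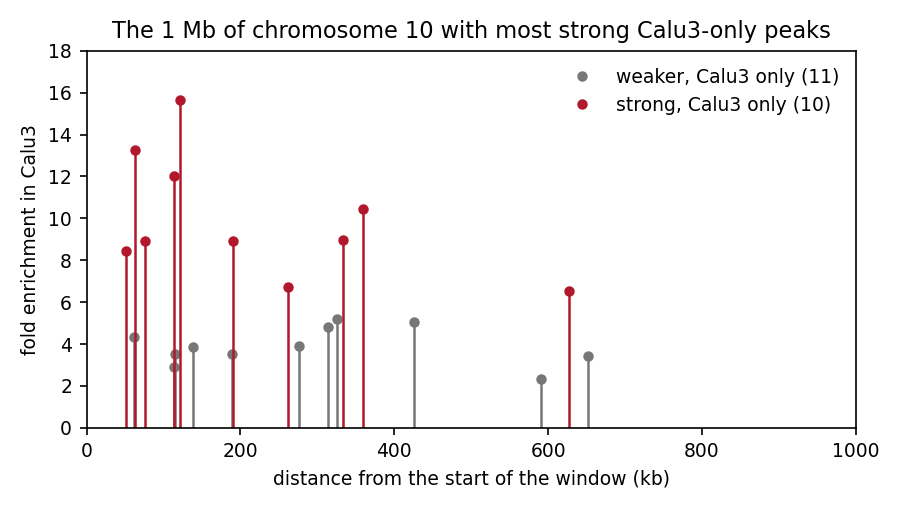
Fold enrichment of each Calu3 peak (vertical lines with points) against distance in kb from the start of the window on chromosome 10 with most Calu3-only strong peaks. The 10 strong peaks, up to a fold of 15.6, and the 11 weaker ones are interspersed, and no 16HBE14o- peak falls in the window.

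With gaps of at most 100 kb between summits, 9 of these 10 joined 2 further peaks just before the window into the largest group, of 11. Its summits ran from 4983898 to 5359829 on chromosome 10, over 376 kb, with gaps from 6.18 to 71.7 kb. The strongest was the peak from 5121021 to 5121366, with a fold of 15.6 and rank 377. Those from 5062387 to 5062767, from 4983750 to 4984070 and from 5113891 to 5114348 had folds of 13.2, 12.3 and 12.03. The peak from 4989966 to 4990223 was the weakest, at 6.32. Between the first and the last summit lay 9 further, weaker Calu3 peaks and no 16HBE14o- summit, and the nearest 16HBE14o- summit was 237 kb from the group. Shared strong peaks formed groups of at most 3 at the same gap. The share of peaks in a group of 2 or more was 19.7% of Calu3-only and 18.4% of shared strong peaks. Group size and share at a fixed gap depend on the number of peaks, 1409 against 842, and were not adjusted for it.

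The next 6 windows held 5 Calu3-only strong peaks each. Chromosome 5 from 146000001 to 147000000 had the widest spread of folds, from 6.56 to 26.9, and no 16HBE14o- peak. The windows on chromosome 10 from 59000001 to 60000000 and on chromosome 11 from 34000001 to 35000000 had no 16HBE14o- peak either, with top folds of 12.6 and 10.2. On chromosome 8 from 24000001 to 25000000, with a top fold of 15.1, the lines shared 1 strong peak. In the windows on chromosome 9 from 21000001 to 22000000 and on chromosome 10 from 3000001 to 4000000, the top folds were 13.7 and 10.8, with 2 and 3 16HBE14o- peaks. Chromosome 10 thus held 3 of the 7 windows with most Calu3-only strong peaks, beside 6.46% of all such peaks.

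The Calu3-only part of the strong peaks varied between chromosomes, around 62.6% in all. It was highest on chromosome X, at 72.6% (53 of 73, 60.9 to 82.4), chromosome 5, at 70.7% (130 of 184, 63.5 to 77.1), and chromosome 10, at 70.0% (91 of 130, 61.3 to 77.7). Chromosomes 15, 22 and 16 had the lowest parts, at 37.5% (21 of 56, 24.9 to 51.5), 46.9% (15 of 32, 29.1 to 65.3) and 48.3% (29 of 60, 35.2 to 61.6). On 18 of the 21 chromosomes more than 50% of the strong peaks were Calu3-only. The intervals of 3 chromosomes (5, 15 and 16) left out the overall 62.6%, with no adjustment over the 21.

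Among weaker Calu3 peaks the part without a 16HBE14o- counterpart was 92.2% on X, 93.1% on chromosome 5 and 93.8% on chromosome 10, and 90.7%, 82.8% and 84.1% on chromosomes 15, 22 and 16. Chromosome 15, lowest among strong peaks, lay between these other chromosomes among weaker ones. The number of peaks that each list holds on a chromosome also differed. There were 5.36 Calu3 peaks for each 16HBE14o- peak on chromosome 10, 4.53 on X and 4.41 on chromosome 5, against 2.19 on chromosome 15, 1.84 on chromosome 22 and 1.64 on chromosome 16. Other chromosomes did not follow the same order. Chromosome 8 had 4.40 and a Calu3-only part of 61.1%, and chromosome 11 had 1.78 and 61.8%. Chromosome 21 had only 1.5 and a part of 69.2% (18 of 26, 48.2 to 85.7). The lowest ratio, 1.21 on chromosome 14, went with 51.3%. On the chromosomes left out, the same definition gave 76.1% (188 of 247, 70.3 to 81.3) on chromosome 3 and 47.6% (30 of 63, 34.9 to 60.6) on chromosome 20. The parts of copy number and of the number of peaks in each list in these shares were not tested.

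**Figure D5:**
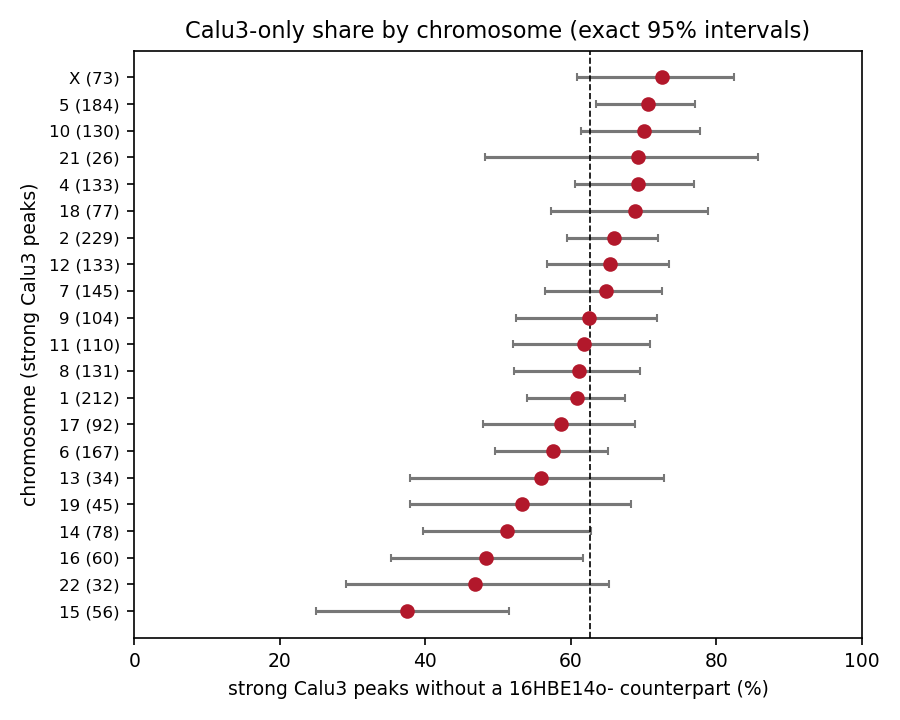
Percentage of strong Calu3 peaks without a 16HBE14o- counterpart on each of 21 chromosomes, with 95% exact binomial intervals and the number of strong peaks in parentheses; the dashed line marks 62.6%. Values run from 37.5% on chromosome 15 to 72.6% on X, and most intervals include the line.

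Chromosomes also differed in how far Calu3-only strong peaks lay from 16HBE14o- peaks. The median distance was 1649 kb on X and 1359 kb on chromosome 11, against 102 kb on chromosome 22 and 109 kb on chromosome 19. For weaker Calu3-only peaks it was 1405, 594, 115 and 186 kb on these chromosomes, in the same order. On chromosome 11 the 16HBE14o- peaks themselves lay close together, with 105 of 220 in the 10 Mb from 60000001 to 70000000, the stretch that held most of them. The part of this crowding in the distances on chromosome 11 was not tested.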

How the data were processed

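Peaks of both lines are on hg19, per the submitters' processing notes. Each list combines 2 replicates by the irreproducible discovery rate, per the labels. The sources used here do not give the aligner, caller, thresholds or control. The Calu3 values, as deposited, are a fold enrichment (inferred from the file format), a −log10 p, a −log10 q and a browser score of each peak. The deposited 16HBE14o- list gives peak signal, whose scale is unstated, and scores of unstated kind. The signal was used only for percentiles within that list, and the scores were not used.

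Rows were used as deposited, without merging. Calu3 rows were ranked by fold, ties sharing the best rank. Shares carry 95% exact Clopper-Pearson intervals, and medians 95% binomial order-statistic intervals. No test was made, since peaks were chosen on these values and each line is 1 list. The members, comparison sets and lists were chosen with earlier results of these data known. The peaks named were, by rule, the 20 with the highest fold, 3 on each side of the limit, and the windows of 1 Mb with most members (5, extended to 7 by ties). Other named peaks, the bands of fold, the group on chromosome 10 and the stretch of chromosome 11 were chosen after values were seen. Motifs, gene positions and gene lists were not analysed here, since the gene tables used are on another build. The member rule was tested on simulated data. Python 3.11.15, numpy 2.4.6, pandas 2.3.3, scipy 1.17.1 and matplotlib 3.10.9 were used.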

Additional observations from a re-analysis of the deposited data

How the results depend on the processing

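Of 37 values recomputed under other settings, 21 stayed within their limits, 16 moved and none reversed. Only the differences in median fold and width between Calu3-only and shared peaks could reverse, since counts, shares and distances have no sign. In the upper 10% by fold, 406 Calu3-only peaks remained (44.7% of strong peaks, median fold 12.6), with 5 windows of 1 Mb holding 3 or more. In the upper 50% there were 3368 (75.03%, median fold 5.79) and 446 such windows, and the medians of Calu3-only minus shared peaks were −3.70 in fold and −81.0 bp in width, against −3.05 and −61.5 bp as reported. With only Calu3 peaks of a deposited q under 0.05 before ranking, there were 938 (56.6%, median fold 9.79), 32 windows, and a median of 84.6 kb to the next Calu3 summit, a list that is shorter by construction. Windows of 100 kb with 3 or more numbered 7. Ranking by the deposited p gave 1357, and a summit limit of 5000 bp 1375. No paired analysis was possible because the replicates of a line were pooled into 1 list, so no replicate could be left out. The alternatives planned for motifs, gene positions and gene lists were not run. Depth is unknown and limits every statement that a site was found in 1 line only.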
